A study of Mus musculus with 10 samples.

Results

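The genes described here encode parts of the sperm tail and of the motile axoneme, the microtubule core that the tail shares with motile cilia. They were chosen by a rule on gene symbols, with earlier results of these data known. The rule took dynein heavy chains (Dnah), intermediate chains (Dnai, Dnaic) and light chains (Dnal), radial spoke proteins (Rsph), members of the nexin-dynein regulatory complex (Drc), tektins (Tekt), outer dense fibre genes (Odf) and cilia and flagella associated proteins (Cfap), each followed by a number. The rule found 76 of the 20007 genes in the adult testis table and 67 of the 17816 genes in the table of Sertoli cells from day 7 after birth. All 67 were also in the adult table. The 9 genes not listed at day 7 were Cfap58, Cfap73, Cfap97d1, Dnah6, Odf1, Odf3b, Odf3l2, Odf4 and Tekt4. The symbol rule mixes sperm tail genes with genes that every ciliated cell uses, and some of its products, such as Cfap20, Cfap410 and Odf2, are also known from primary cilia or centrosomes.

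RNA from 10 mouse samples was enriched for poly(A) and sequenced. At day 7 the samples, which the titles and the study's methods place at that age although the growth protocol of the labels names adult tissue, were cultured primary Sertoli cells, the somatic nurse cells of the seminiferous tubule, 2 from Rnf20 Flox/Flox controls and 2 from Amh-Rnf20-/- mice, in which Cre driven by the Amh promoter removes floxed Rnf20 sequence in Sertoli cells and leaves germ cells with the gene. The methods give 3 individuals a group at day 7, and 2 a group were analysed here. Rnf20 encodes a ubiquitin ligase for histone H2B. In the adult there were 6 samples of whole testis, 3 labelled WT and 3 labelled RNF20 conditional knockout. Their exact age, strain and allele are not given in the sources used here, and the labels do not say that they came from separate animals, so p-values measure only the spread between these samples. Depth was 15431912 to 16574144 estimated counts per adult sample and 17477268 to 17705347 per day 7 sample. FPKM, used for levels, are counts scaled by transcript length and by the total of the sample.

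An axoneme is a ring of doublet microtubules around a central pair. Outer and inner dynein arms, built from heavy, intermediate and light chains, slide the doublets past each other, while radial spokes and the nexin-dynein regulatory complex relay and limit that sliding and tektins lie inside the doublet wall. In sperm the axoneme is wrapped by outer dense fibres and a fibrous sheath that other cilia do not have. In the testis many axoneme genes are first transcribed in spermatocytes, while several outer dense fibre genes are transcribed mainly in spermatids. Sertoli cells carry no motile cilium.

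In adult testis Rnf20 itself was at 4.89, 3.32 and 4.09 FPKM in the controls and at 9.16, 5.76 and 9.85 FPKM in the samples labelled knockout. The test gave a log2 fold change of 0.12 (edgeR quasi-likelihood test, Benjamini-Hochberg adjusted p = 0.688), so the targeted transcript was not lower and the adult groups are called by their labels throughout. A transcript level of a whole testis does not read the deletion in Sertoli cells. By Western blot the paper reports less RNF20 protein and less ubiquitinated H2B in adult Amh-Rnf20-/- testes. It does not say whether those testes gave the samples used here. At day 7 Rnf20 was at 16.64 and 16.01 FPKM in the controls and at 10.25 and 12.58 FPKM in the Amh-Rnf20-/- samples (log2 fold change -0.49, edgeR adjusted p = 0.222).

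Some promoters of these genes held the palindromic box bound by RFX factors, transcription factors known for ciliary genes. The windows are shown because this box was more frequent here than in other promoters, a choice made after the counts were seen. RefSeq promoters (GRCm38.p6) were matched for 64 of the 76 genes, and the 250 bases before the start site were searched on both strands. The palindrome, GTTNCC and GNAAC with 3 bases between them, was in 5 of the 64, or 7.81%, against 0.755% of 17492 protein-coding promoters of the same length. Capitals mark the match, which lies on the opposite strand in Cfap44 and Cfap45.
Cfap20dc: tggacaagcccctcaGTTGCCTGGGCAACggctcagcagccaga
Cfap298: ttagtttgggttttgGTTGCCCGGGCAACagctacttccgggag
Cfap44: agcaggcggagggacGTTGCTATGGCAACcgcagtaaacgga
Cfap45: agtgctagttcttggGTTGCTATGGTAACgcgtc
Odf2l: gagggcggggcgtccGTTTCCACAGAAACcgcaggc
The windows lie at chr14:8666364-8666407 (minus strand, Cfap20dc), chr16:90935009-90935052 (minus strand, Cfap298), chr16:44394757-44394798 (plus strand, Cfap44), chr1:172521096-172521129 (plus strand, Cfap45) and chr3:145118564-145118599 (plus strand, Odf2l). The match ended 5 to 174 bases before the start site of the RefSeq promoter entry, which for Cfap20dc, Cfap44 and Odf2l is a start inside the outermost bounds of the gene. The matches of Cfap44 and Odf2l therefore lie within those bounds. A stricter form, GTTGCC and GGNAAC with 2 bases between them, was in 2 promoters, those of Cfap20dc and Cfap298, or 3.13%, against 0.297%. The single arm GTTGCC, which the palindromes can contain, was in 20 of the 64, or 31.3%, against 12.0%. The full CRE TGACGTCA was in 1 promoter, that of Dnah6 (1.56% against 2.20%), the forkhead core GTAAACA in 4 (6.25% against 3.04%), CCAAT in 25 (39.1% against 39.5%) and TATAAA in 3 (4.69% against 13.7%). These are counts of letters and were not tied to binding or to the fold changes below. The genes lay on many chromosomes, with 11 on chromosome 11 and 8 on chromosome 1.

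In adult controls these genes spanned a wide range of levels. Odf1, the major protein of the outer dense fibres, was at 1770, 2024 and 1790 FPKM, Odf2, the fibre protein that also has a centrosomal form, at 1790, 1708 and 1651 FPKM, and Rsph1, a radial spoke head protein, at 1365, 1327 and 1198 FPKM. At the other end Odf3l2 was listed at 0, 0 and 0.06 FPKM, and Rsph4a, Dnah5 and Dnah11 stayed under 0.5 FPKM. There were 71 genes with a mean control level of at least 1 FPKM.

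Nearly all of them were far lower in the adult samples labelled knockout. Of the 76 genes, 72 were tested, meaning that they reached 0.5 FPKM in at least 3 samples, and 40 of these passed that filter through the controls only, which favours genes that are lower. On TMM-scaled counts, 71 of the 72 were lower in every sample labelled knockout than in any control and 1, Dnah9, was higher in every one. Groups did not overlap in the lower direction for 43.1% of all genes tested. With a change over 1 on the log2 scale and an edgeR adjusted p under 0.001, 40 genes were called lower, against 23.7% of all genes tested, and 0 were called higher, against 23%. Dnah9, with an edgeR adjusted p of 0.00259, was the 1 gene above 0 at an unadjusted p under 0.05, and DESeq2 called 0 genes higher and limma 1. The other 32 were not called, although all 72 had an adjusted p under 0.05. All 72 also had an unadjusted edgeR p under 0.05, as did 13144 of the 15919 genes tested. Log2 fold changes of the 72 had a median of -4.94, against 0.01 over all genes tested, and ranged from -9.81 to 1.05. The 32 that passed the filter in both groups had a median of -3.91, with 31 lower without overlap and 26 called lower. In whole tissue, fewer cells of a type and less RNA per cell cannot be told apart. The scaling assumed matters in this table, since TMM factors were 0.710 to 0.761 in the controls and 1.27 to 1.42 in the other group. With plain totals the median over all genes became 0.87 and that of these genes -4.04, and with median-ratio scaling they became -0.19 and -5.15. In each case 71 of the 72 stayed below 0, but with plain totals 23 were called lower and 1, Dnah9, higher.

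**Figure D1:**
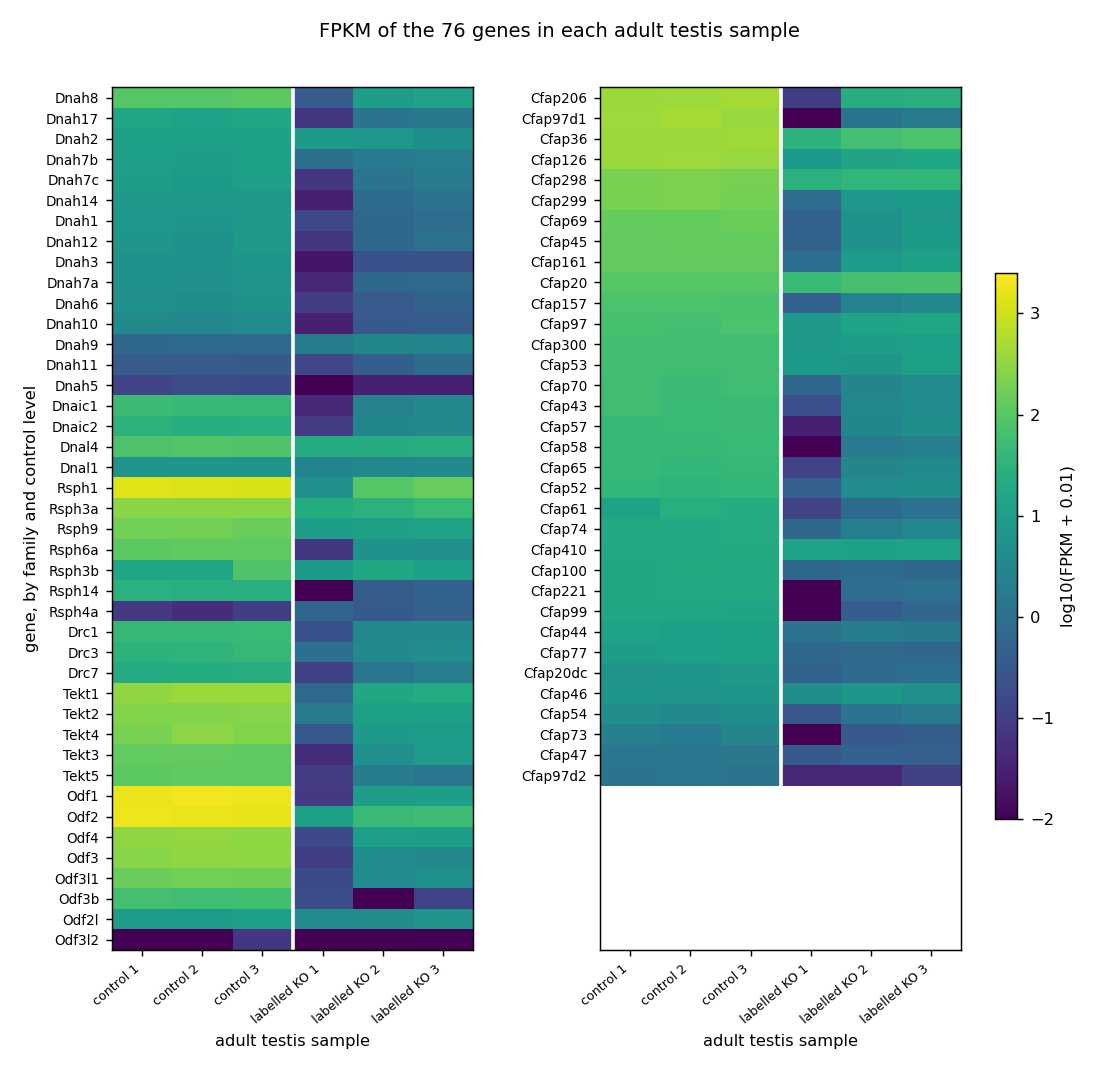
Level of each of the 76 genes (rows, ordered by family and control level) in the 6 adult testis samples (columns), as log10(FPKM + 0.01) on a colour scale. The labelled knockout columns are darker in nearly every row, the first of them darkest, while Dnah9 and Rsph4a are lighter there and Cfap46, Cfap410, Cfap20, Dnah2, Dnal1 and Odf2l change little in colour.

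The 3 samples labelled knockout did not lose these transcripts to the same degree. Over the 71 genes with a control level of at least 1 FPKM, the median level was 0.601% of the control mean in replicate 1, 7.41% in replicate 2 and 9.50% in replicate 3. Replicate 1 was the lowest of the group for 65 of the 71, listed 6 of them at 0 and held 40 under 0.5 FPKM. Replicate 2 was below replicate 3 for 58 of the 71. The summed level of all 76 genes was 10945, 11427 and 10943 FPKM in the controls and 270.1, 662.8 and 789.8 FPKM in the samples labelled knockout.

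Many calls depended on replicate 1. Without that sample 70 of the 72 were called lower, against 31.6% of all genes, and Dnah9 was called higher (log2 fold change 1.32, edgeR adjusted p = 6.51e-05). The remaining gene was Rsph3b (adjusted p = 0.0236). Leaving out any other sample gave 14 to 19 calls.

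Markers of germ cells are given beside this gradient. The 12 spermatid markers summed to 178756, 203962 and 133628 FPKM in the controls and to 4.27, 124.6 and 72.5 FPKM in the samples labelled knockout, or 0.0025%, 0.072% and 0.042% of the control mean. Prm1, Prm2, Tnp1 and Tnp2 made up 89.6% to 92.2% of the control sums, and the other 8 markers kept 0.019%, 0.483% and 0.413%. Prm1, the protamine that packs sperm DNA, was listed at 0 in replicate 1. The 12 spermatocyte markers were at 1419, 1412 and 1449 FPKM against 31.6, 177 and 257 FPKM, or 2.21%, 12.4% and 18%. The 11 spermatogonium markers were at 309.6, 277.7 and 307.4 FPKM against 61.9, 324.9 and 462.7 FPKM, a sum that Uchl1 dominates in replicates 2 and 3 (6.72, 189.3 and 297.0 FPKM). In replicate 1 Kit (36.9 FPKM) and Etv5 (12.0 FPKM) made up most of the sum, and no other marker was above 6.72 FPKM. Ddx4, Dazl, Stra8 and Nanos3 were at 0.93, 0.51, 0 and 0 FPKM there. That list went both ways, with 6 of 11 lower without overlap, none called lower, and 3 (Kit, Zbtb16 and Etv5) called higher, against 23% of all genes. On TMM-scaled counts all 12 spermatid and all 12 spermatocyte markers were lower without overlap, as were 43.1% of all genes. On FPKM the spermatocyte marker Dmc1 overlapped, at 8.69, 6.35 and 6.21 FPKM against 0.87, 5.30 and 8.19 FPKM. Called lower were 8 of the spermatid markers and 1 of the spermatocyte markers, against 23.7% of all genes. The 12 Sertoli cell markers summed to 697.2 to 894.3 FPKM in the controls and to 2379, 6608 and 7648 FPKM in the samples labelled knockout, a sum made up mostly of Clu and Ctsl. Of the 12, 2 were called higher (Gata4 and Kitl), 1 was called lower (Rhox5, log2 fold change -5.57, edgeR adjusted p = 0.000158), against 23% and 23.7% of all genes. The 5 higher without overlap compare with 42.4% of all genes. The 6 Leydig cell markers went from 3997 to 5602 FPKM to 63070, 87434 and 71082 FPKM and the 6 macrophage markers from 41.4 to 48.7 FPKM to 1152, 969.6 and 862.1 FPKM, with all 6 of each list called higher, against 23% of all genes. The 5 endothelial cell markers went from 5.17 to 7.17 FPKM to 48.5, 34.0 and 31.0 FPKM, with 2 called higher, against 23% of all genes. The 7 peritubular myoid cell markers summed to 343 to 409 FPKM in the controls and to 677, 463 and 580 FPKM in the samples labelled knockout. Of the 7, 4 were called higher, against 23% of all genes, and 1, Actg2, called lower (log2 fold change -7.73, edgeR adjusted p = 2.9e-05), against 23.7%. The part of these shifts in the changes of the flagellar genes was not tested.

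**Figure D2:**
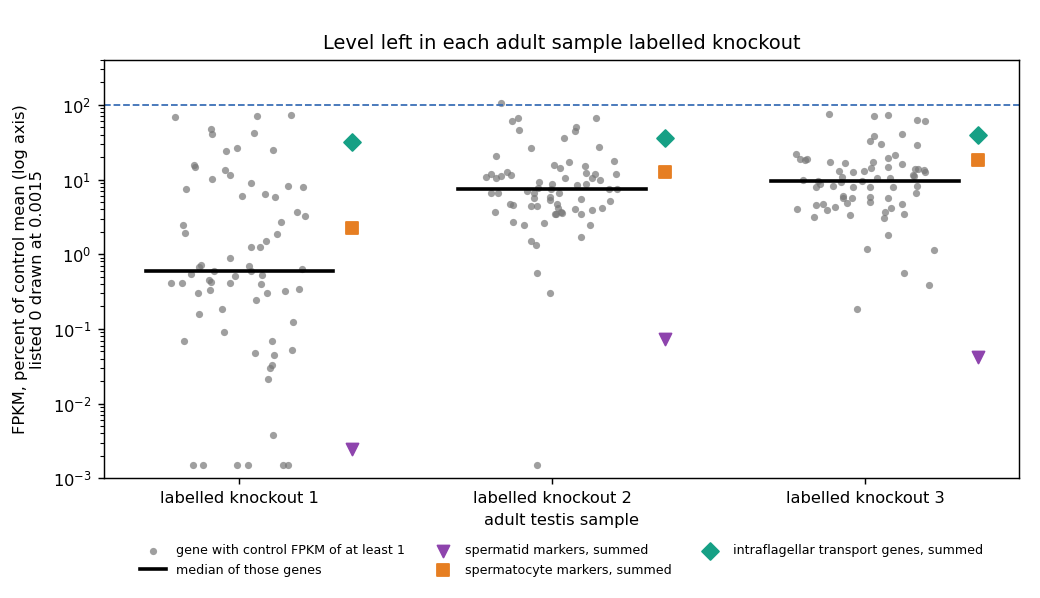
Level in each adult sample labelled knockout as a percentage of the control mean (log axis), for the 71 genes with a control level of at least 1 FPKM (grey points, black line at their median, listed zeros drawn at 0.0015) and for the summed markers of spermatids and spermatocytes and the summed intraflagellar transport genes (coloured symbols). The medians lie at 0.601%, 7.41% and 9.50%, the spermatid markers under 0.1% and the intraflagellar transport genes between 32.2% and 39.8%.

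Log2 fold changes of the outer dense fibre genes had a median of -6.60. Of 8 genes 7 were tested, 5 of them through the controls only, and the 2 that passed the filter in both groups were Odf2 (-6.07) and Odf2l (-1.70). All 7 were lower without overlap, against 43.1% of all genes tested, and 5 were called lower, against 23.7%. The family summed to 4362, 4635 and 4285 FPKM in the controls against 16.8, 79.5 and 88.8 FPKM. Odf3b (chr15:89377447-89379254, RefSeq, GRCm38.p6) was at 63.0, 56.5 and 57.3 FPKM in the controls and at 0.19, 0 and 0.11 FPKM in the samples labelled knockout. Those values rest on 1782 counts against 3 in all, a ratio of 1040 after TMM scaling (exact 95% interval 355 to 5048, counting error only), and its edgeR adjusted p was 2.76e-05.

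Odf1 (chr15:38219203-38226735) was at 0.07, 10.4 and 10.3 FPKM in the samples labelled knockout, which is 0.372% of the control mean. Its log2 fold change of -8.97 ± 1.58 (SE) was among the largest, yet it was not called (edgeR adjusted p = 0.00218). Replicate 1 held 1 count where the other samples of its group held 142 and 136, and without replicate 1 its adjusted p was 1.43e-08. Odf4, a membrane protein of the tail, was at 313.5, 338.3 and 303.4 FPKM against 0.15, 11.3 and 10.9 FPKM (log2 fold change -6.31, adjusted p = 0.00396). The groups did not overlap for either gene, and Odf4 had an adjusted p of 1.58e-08 without replicate 1.

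Odf3, a protein along the tail, went from 272.9, 317.2 and 300.4 FPKM to 0.09, 3.99 and 3.48 FPKM (log2 fold change -7.76 ± 1.02, edgeR adjusted p = 0.000592). Its relative Odf3l1 went from 144.0, 181.5 and 172.3 FPKM to 0.15, 4.09 and 5.22 FPKM (-6.60 ± 0.94, adjusted p = 0.000861). Odf2 was at 11.9, 45.3 and 52.5 FPKM or 2.13% of the control mean (-6.07 ± 0.57, adjusted p = 0.00016). That share lay between those of Odf3l1 (1.90%) and Odf4 (2.34%). Odf2l, which has a centriolar product, stood apart from the family at 9.30, 9.83 and 11.3 FPKM against 4.23, 4.48 and 6.32 FPKM (-1.70 ± 0.16, adjusted p = 0.000145).

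The 5 tektins, filament proteins of the doublet wall, all had log2 fold changes under -5. All 5 were lower without overlap, against 43.1% of all genes tested, and 2 were called lower, against 23.7%. Of the 5, 3 passed the filter through the controls only. The 2 that passed in both groups, Tekt1 and Tekt2, had a median of -5.77. Tekt5 (chr16:10357952-10395455) was at 109.8, 118.5 and 117.6 FPKM in the controls and 0.08, 1.97 and 1.33 FPKM in the samples labelled knockout (log2 fold change -7.55 ± 0.92, edgeR adjusted p = 0.000439). Tekt2 was at 246.1, 255.1 and 258.6 FPKM against 1.61, 11.4 and 11.6 FPKM (-5.81 ± 0.77, adjusted p = 0.000621). The 3 tektins not called had control levels of 116.9 to 388.4 FPKM and held 0.04 to 0.68 FPKM in replicate 1 and 5.13 to 20.7 FPKM in the other samples labelled knockout. Their log2 fold changes were -5.72 (Tekt1, adjusted p = 0.00424), -5.53 (Tekt3, adjusted p = 0.00783) and -6.20 (Tekt4, adjusted p = 0.0029).

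The dynein heavy chains, the motors of the arms, numbered 15, of which 13 were tested. Of these, 12 were lower without overlap, against 43.1% of all genes tested, and 5 were called lower, against 23.7%. Their log2 fold changes had a median of -4.55, but 10 of the 13 passed the filter through the controls only. The 3 that passed in both groups had a median of -1.74 and ran from -3.71 to 1.05. Dnah3, an inner arm chain, fell from 5.92, 5.80 and 7.37 FPKM to 0.01, 0.22 and 0.21 FPKM (log2 fold change -6.31 ± 0.79, edgeR adjusted p = 0.000501). The other inner arm chains Dnah1, Dnah6, Dnah7a, Dnah7b, Dnah7c, Dnah10 and Dnah12 had log2 fold changes from -4.95 to -3.71. Dnah7a, Dnah7b and Dnah7c are near-identical copies, so the split of their counts is uncertain. Dnah2, also an inner arm chain, was the least reduced, at 12.3, 11.6 and 12.6 FPKM against 8.55, 7.44 and 4.89 FPKM (-1.74 ± 0.24, adjusted p = 0.000763), and it was highest in replicate 1, the sample in which most of the family was lowest.

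Both outer arm heavy chains of the sperm tail were lower in all 3 samples labelled knockout. Dnah8 (chr17:30626935-30875762) was at 94.4, 95.3 and 111.7 FPKM in the controls and at 0.34, 10.8 and 13.0 FPKM in the samples labelled knockout (log2 fold change -4.55 ± 1.19, edgeR adjusted p = 0.0116). Dnah17 (chr11:118021723-118130719) was at 14.7, 13.3 and 14.7 FPKM against 0.06, 1.21 and 1.5 FPKM (-4.83 ± 1.01, adjusted p = 0.00459). Neither was called at the threshold of 0.001, and both were lower without overlap.

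Their paralogs from other motile cilia, such as those of the airway, did not follow as a group. Dnah9 (chr11:65831324-66168581) was at 0.62, 0.68 and 0.73 FPKM in the controls and at 1.88, 2.94 and 2.74 FPKM in the samples labelled knockout, every one of them above every control (log2 fold change 1.05 ± 0.19, edgeR adjusted p = 0.00259, and 1.91 with plain totals). Dnah11, not tested, was at 0.35, 0.35 and 0.33 FPKM against 0.13, 0.42 and 0.80 FPKM, with the groups overlapping. Dnah5, not tested, was at 0.12, 0.17 and 0.15 FPKM against 0, 0.02 and 0.02 FPKM, lower in all 3.

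Of the radial spoke head paralogs, Rsph6a (chr7:19054678-19074447), the sperm form, went from 107.3, 120.0 and 117.3 FPKM to 0.06, 5.97 and 5.32 FPKM (log2 fold change -5.67 ± 1.24, edgeR adjusted p = 0.00557). Rsph4a (chr10:33905111-33916021), known from airway cilia, was at 0.07, 0.04 and 0.09 FPKM in the controls and at 0.56, 0.33 and 0.44 FPKM in the samples labelled knockout, from 4, 2 and 5 counts against 30, 18 and 23. It did not reach the filter and was not tested.

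Of 13 markers of multiciliated epithelium fixed for comparison, 10 were tested, 4 were called lower and 2 higher, against 23.7% and 23% of all genes, and 4 were higher without overlap, against 42.4%. The regulator Mcidas was at or near 0 in all 6 samples (0 to 0.07 FPKM). Gmnc was at 0.08, 0.08 and 0.06 FPKM against 0.39, 0.20 and 0.06 FPKM. Myb was at 0.04, 0.10 and 0.06 FPKM against 0.18, 0.11 and 0.06 FPKM. Mcidas, Gmnc and Myb did not reach the filter and were not tested. Foxj1, a regulator of motile cilia, fell from 29.1 to 34.8 FPKM in the controls to 1.3, 2.76 and 2.62 FPKM (log2 fold change -4.67, edgeR adjusted p = 4.53e-05). The markers that rose past the thresholds were Tppp3 (1.37, adjusted p = 0.000537) and Krt18 (3.71, adjusted p = 0.000476), which other epithelia also express. Pax8 was higher without being called, at 0, 0.03 and 0 FPKM against 4.54, 1.42 and 1.57 FPKM (adjusted p = 0.00116), as was Ccdc153 (1.37, adjusted p = 0.0414). The list summed to 1109 to 1399 FPKM in the controls, mostly Fam183b and Dynlrb2. In the samples labelled knockout it summed to 111.4, 160.6 and 183.0 FPKM, mostly Tppp3 (72.8, 98.0 and 123.8 FPKM). Its part in the values of Dnah9 and Rsph4a was not tested.

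**Figure D3:**
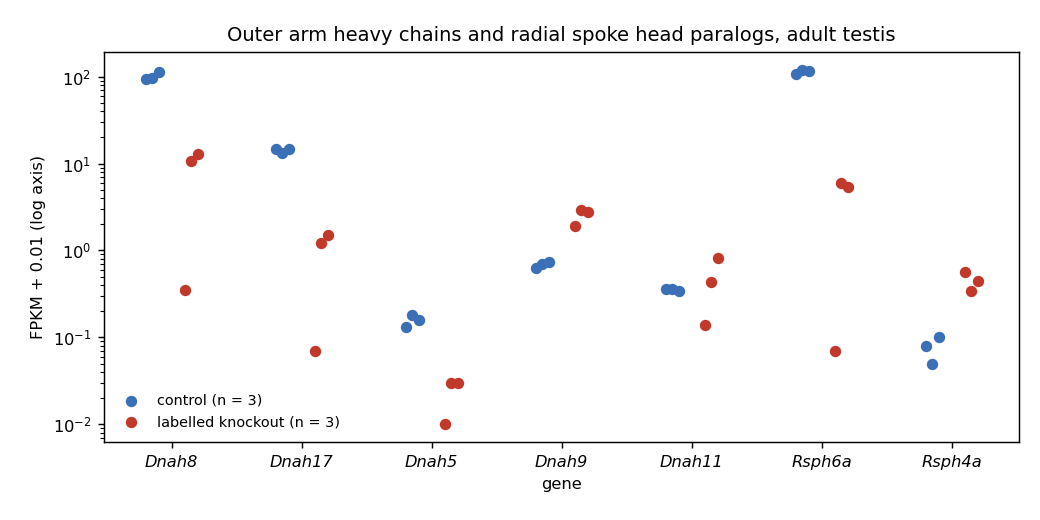
FPKM + 0.01 (log axis) in each adult sample for outer arm heavy chains and radial spoke head paralogs, controls in blue and samples labelled knockout in red. Dnah8, Dnah17, Dnah5 and Rsph6a lie lower in red, Dnah9 and Rsph4a lie higher in red and Dnah11 overlaps.

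The other arm and spoke parts were lower as well. The intermediate chains Dnaic1 and Dnaic2, which anchor the outer arm, went from 40.4 to 47.4 and 23.4 to 30.3 FPKM in the controls to 0.03, 2.46 and 3.42 and to 0.08, 3.07 and 3.67 FPKM (log2 fold changes -5.34 and -4.38, edgeR adjusted p = 0.00425 and 0.00476). The light chains had the smallest median fall of the families (-2.02), and both were called lower, against 23.7% of all genes tested. Among genes that passed the filter in both groups, the 3 dynein heavy chains had a smaller one (-1.74). Dnal4 was at 77.0, 85.8 and 79.9 FPKM against 21.1, 22.3 and 23.4 FPKM (-2.74 ± 0.12, adjusted p = 2.79e-05), and Dnal1 at 6.25, 6.83 and 6.37 FPKM against 2.66, 3.23 and 3.91 FPKM (-1.3 ± 0.15, adjusted p = 0.000368). In these light chains replicate 1 did not stand apart: the family was at 27.1%, 29.2% and 31.3% of its control level in the 3 samples, where the tektins were at 0.246%, 4.02% and 4.84%.

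Of the 7 radial spoke genes 6 were tested, 2 of them through the controls only, and 3 were called lower, against 23.7% of all genes tested. Rsph14 was at 28.3, 24.9 and 25.7 FPKM against 0, 0.39 and 0.48 FPKM (log2 fold change -7.31 ± 0.61, edgeR adjusted p = 0.000102). Rsph1 (chr17:31255019-31277296) kept the highest level of all 76 genes in the samples labelled knockout on average, yet from 5.35 FPKM in replicate 1 to 96.5 and 138.1 FPKM in the others (-4.92 ± 1.11, adjusted p = 0.00623). Rsph9 showed little spread, at 179.1, 177.8 and 146.5 FPKM against 9.98, 12.6 and 13.2 FPKM (-4.62 ± 0.16, adjusted p = 2.7e-05). The near-identical pair Rsph3a and Rsph3b has uncertain counts. Rsph3b was at 15.4 and 15.1 FPKM in control replicates 1 and 2 and at 81.4 FPKM in replicate 3, and at 8.91, 17.4 and 11.1 FPKM in the samples labelled knockout. On FPKM its groups overlap, and on TMM-scaled counts they do not.

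The nexin-dynein regulatory complex genes Drc1, Drc3 and Drc7 were at 20.97 to 44.18 FPKM in the controls and at 0.10 to 0.92 FPKM in replicate 1 and 1.29 to 4.53 FPKM in the others. Their log2 fold changes were -5.11 (edgeR adjusted p = 0.00225), -4.40 (0.000439) and -5.15 (0.00136). Of the 3, Drc3 was the one called lower, against 23.7% of all genes tested, and the one that passed the filter in both groups.

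The 34 Cfap genes, the most varied family in function, were all tested. All were lower without overlap, against 43.1% of all genes tested, and 22 were called lower, against 23.7%. The median was -4.97 on the log2 scale, but 16 passed the filter through the controls only. The 18 that passed in both groups had a median of -3.91. Cfap97d1 (chr11:101987056-101992264), a sperm tail gene, was at 412.3, 465.4 and 375.6 FPKM in the controls and at 0, 1.26 and 1.60 FPKM in the samples labelled knockout (log2 fold change -9.62 ± 0.84, edgeR adjusted p = 0.000121). Cfap99 was at 16.2, 15.7 and 14.0 FPKM against 0, 0.41 and 0.59 FPKM (-6.37 ± 0.79, adjusted p = 0.000474). Cfap299 was at 203.3, 217.3 and 187.8 FPKM against 0.83, 7.47 and 8.78 FPKM (-6.03 ± 0.80, adjusted p = 0.000629). In all 3 the first sample labelled knockout was the lowest.

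The Cfap genes with the highest levels in the samples labelled knockout were Cfap20, Cfap36 and Cfap298. Cfap36, which binds the ciliary small GTPase ARL3, was at 388.4, 384.3 and 418.7 FPKM against 31.1, 61.5 and 75.6 FPKM (log2 fold change -3.66 ± 0.35, edgeR adjusted p = 0.000163). Cfap298, a factor in the assembly of dynein arms, was at 202.2, 217.0 and 199.9 FPKM against 30.1, 35.5 and 38.5 FPKM (-3.44 ± 0.15, adjusted p = 2.76e-05). Cfap20 (chr8:95420249-95434869), a microtubule protein conserved in all cilia, was at 96.9, 95.1 and 94.1 FPKM against 45.0, 63.8 and 66.9 FPKM (-1.57 ± 0.16, adjusted p = 0.000191). Cfap410, known from primary cilia, was at 17.8, 18.1 and 19.8 FPKM against 13.7, 12.2 and 13.4 FPKM (-1.35 ± 0.13, adjusted p = 0.000151).

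Among the Cfap genes, Cfap46 (chr7:139600914-139684787), a protein of the central pair, kept the largest share of its FPKM. It was at 7.37, 6.33 and 7.11 FPKM against 4.77, 7.37 and 5.20 FPKM, which overlap and average 83.3% of the control mean. On TMM-scaled counts its log2 fold change was -1.70 ± 0.18 (edgeR adjusted p = 0.000272), and with plain totals it was -0.84. Over the tested genes the smallest falls, chosen after their values were seen, belonged to Dnal1, Cfap410, Cfap20, Cfap46, Odf2l, Cfap53 and Dnah2, with log2 fold changes of -1.3 to -1.74. With plain totals these were -0.44 to -0.90.

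A few genes also changed in the transcript length that their count and FPKM imply. RSEM, which the methods name for the day 7 table, sets each gene's length from the isoforms it estimates to be present, so count, FPKM and total together give that length for each sample. Of 38 of these genes with a usable value in the adult table, 5 differed by over 1.3-fold between the groups, against 3.70% of 12014 genes. They are named after their values were seen. Cfap53, a protein inside the doublet, had an implied length of 1701, 1672 and 1695 bases in the controls and of 5840, 5333 and 5468 bases in the samples labelled knockout. Dnal1 went from 4296, 3415 and 3694 bases to 5505, 5559 and 5569 bases, and Odf2 from 2167, 2167 and 2173 bases to 3452, 2623 and 2807 bases. Cfap74, of the central pair, went the other way, from 4804, 4767 and 4873 bases to 2611, 3720 and 3965 bases, and Cfap46 from 7892, 7833 and 7884 bases to 5125, 5241 and 5458 bases.

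Between the day 7 groups 1 of 23 genes differed by over 1.3-fold, against 0.164% of 12803 genes. It was Cfap161, at 1128 and 1161 bases in the controls and 1589 and 1528 bases in the Amh-Rnf20-/- samples. Its counts were low, at 21 and 22 against 15 and 23. Its mean FPKM was 65.0% of control, while its log2 fold change on TMM-scaled counts was -0.14. In the 4 day 7 samples Cfap53 had implied lengths of 5836 to 5847 bases, Dnal1 of 5492 to 5535 bases, Odf2 of 3310 to 3386 bases and Cfap74 of 2309 to 2362 bases. All 3 samples labelled knockout were nearer to these than to the adult controls for Cfap53 and Dnal1. For Odf2 and Cfap74 the value nearest to day 7 was that of replicate 1, while replicate 2 for Odf2 and replicates 2 and 3 for Cfap74 were nearer to the adult controls. Cfap46 was too low at day 7 to give a length. The longest GENCODE transcripts of these genes were 2086 bases for Cfap53, 5727 for Dnal1, 4291 for Odf2, 5487 for Cfap74 and 8180 for Cfap46, so the implied length of Cfap53 exceeds the longest of its transcripts there. For Cfap53 the shift separates the measures: its FPKM fell from 58.9, 54.3 and 56.3 to 8.90, 7.15 and 12.0, or to 16.5%, while its counts of 1661, 1487 and 1550 against 827, 618 and 1010 gave a log2 fold change of -0.88 with plain totals and -1.74 with TMM scaling.

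**Figure D4:**
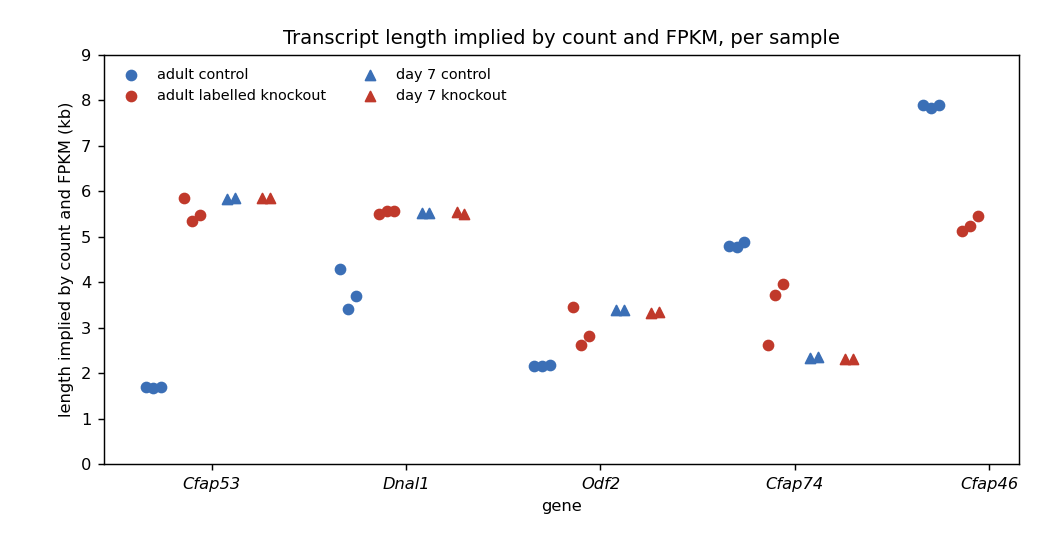
Transcript length in kilobases implied by count, FPKM and library total for 5 genes, one point per sample (circles adult, triangles day 7, blue control, red knockout or labelled knockout). Adult controls lie apart from the adult samples labelled knockout, which lie near the day 7 samples for Cfap53 and Dnal1 and between the controls and day 7, or beyond day 7, for Odf2 and Cfap74. Cfap46 has no day 7 value.

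Genes of the pathway outside the symbol rule were described by counts and medians. Of 40 other axoneme genes 39 were tested and 24 called lower, against 23.7% of all genes tested, with a median of -5.28 on the log2 scale. None was called higher, against 23% of all genes, and Tctex1d4, at 2.85, had an edgeR adjusted p of 0.0111. The most abundant in the controls, Meig1, needed for the manchette and tail, went from 6895, 7649 and 6000 FPKM to 0.74, 173.9 and 208.6 FPKM (edgeR adjusted p = 0.0118). Of 25 fibrous sheath and other tail genes 23 were tested, with a median of -5.93. All 23 were lower without overlap, against 43.1% of all genes, and 12 were called lower, against 23.7%. Of the 16 preassembly factors, which fold dynein arms in the cytoplasm, 13 were tested and had a median of -3.31. Of these, 9 were called lower, against 23.7% of all genes. Dnaaf1 went from 323.0, 366.9 and 367.3 FPKM to 0.17, 21.0 and 22.5 FPKM (adjusted p = 0.014).

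The intraflagellar transport genes, which all ciliated cells use, kept more. All 26 were tested, with a median of -2.59. Of these, 22 were called lower, against 23.7% of all genes tested, and none higher, against 23%. Their sum stood at 32.2%, 36.1% and 39.8% of the control mean in the samples labelled knockout, so in the sum replicate 1 was close to the others. That sum includes Ift20, which went the other way, from 36.8, 38.4 and 38.3 FPKM to 121, 102 and 97.0 FPKM, highest in replicate 1. Ift43, the most abundant in the controls, was at 305.0, 329.5 and 298.6 FPKM against 55.1, 82.6 and 100.5 FPKM (log2 fold change -2.85, edgeR adjusted p = 8.88e-05).

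Of 15 regulators of ciliary genes 12 were tested and 8 called lower, against 23.7% of all genes tested. Rfx2, an RFX factor of the germ line, was at 104.1, 107.2 and 116.2 FPKM against 3.43, 6.06 and 8.32 FPKM (log2 fold change -5.08, edgeR adjusted p = 6.09e-05). Crem, a regulator of spermatid genes, was at 128.5, 135.2 and 140.2 FPKM against 7.69, 12.0 and 14.5 FPKM (-4.46, adjusted p = 4.36e-05). The tested regulators not called were Rfx4 (-5.44, adjusted p = 0.00444), Mybl1 (-2.65, adjusted p = 0.0114), Rfx5 (-0.14, adjusted p = 0.307) and Rfx7 (0.64, adjusted p = 0.00614).

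In day 7 Sertoli cells most of these genes were hardly detected. Of the 67 listed, 21 reached 0.5 FPKM in at least 2 of the 4 samples and were tested, and 46 did not. All 14 dynein heavy chains were among the 46 and together summed to 1.13 and 1.17 FPKM in the controls and 1.19 and 1.18 FPKM in the Amh-Rnf20-/- samples. The intermediate chains and the nexin-dynein regulatory complex were equally low, at sums of under 1 FPKM in each sample. Spermatid markers were near 0, with 6 of the 12 not listed and the others summing to 0.78 to 2.06 FPKM.

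Among the 21 genes tested, Cfap20 was highest, at 45.7 and 46.2 FPKM in the controls and 36.2 and 44.6 FPKM in the Amh-Rnf20-/- samples. Cfap36 was at 24.6 and 26.1 FPKM against 20.8 and 29.5 FPKM, Cfap298 at 23.6 and 26.5 FPKM against 18.9 and 25.7 FPKM, and Odf2 at 23.5 and 23.4 FPKM against 21.1 and 25.2 FPKM. In Cfap36 and Odf2 the groups overlap, and in Cfap298 they do as well. Next came Rsph3a at 18.8 and 17.6 FPKM against 16.2 and 11.9 FPKM, Cfap53 at 19.7 and 16.1 FPKM against 17.4 and 7.99 FPKM, and Dnal4 at 18.1 and 17.4 FPKM against 14.5 and 16.9 FPKM. Cfap410, next in the order, was at 10.2 and 12.0 FPKM against 12.5 and 11.5 FPKM. Over the 4 samples the ranges of Cfap36, Cfap298 and Odf2 overlap, as do those of Rsph3a, Cfap53 and Dnal4, while Cfap20 lay above the next gene and Odf2 above Rsph3a in every sample. Rsph3b, whose counts are uncertain, was at 7.26 and 6.52 FPKM against 3.68 and 7.71 FPKM (log2 fold change -0.24 ± 0.37, edgeR adjusted p = 0.801). Cfap300, a dynein arm assembly factor, was at 4.2 and 5.76 FPKM against 5.12 and 5.16 FPKM (log2 fold change 0.09 ± 0.21, edgeR adjusted p = 0.882), and in both genes the groups overlap.

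No flagellar gene changed past a threshold at day 7. None of the 21 had an edgeR adjusted p under 0.05, as was the case for 0% of all 12880 genes tested, and DESeq2 gave none either. At an unadjusted p under 0.05 there was 1, against 15.5% of all genes: Odf2l, at 5.95 and 6.59 FPKM against 4.58 and 5.10 FPKM (log2 fold change -0.35 ± 0.13, adjusted p = 0.309). The 21 log2 fold changes ran from -0.87 to 0.44 with a median of -0.15, against 0.00 over all genes, with 15 below 0 and 6 above. By TMM-scaled counts 7 were lower without overlap, against 26.1% of all genes, and 2 were higher without overlap, against 24.8%. On FPKM these counts were 11, against 31.1%, and 2, against 19.7%.

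Among the 21 tested, the widest difference at day 7 was in Cfap20dc, at 2.64 and 3.58 FPKM against 1.06 and 2.22 FPKM (log2 fold change -0.87 ± 0.46, edgeR adjusted p = 0.434). Cfap97 was at 4.84 and 4.88 FPKM against 4.24 and 3.44 FPKM (-0.31 ± 0.15, adjusted p = 0.401), and Cfap74 at 1.63 and 1.93 FPKM against 1.16 and 1.59 FPKM (-0.36 ± 0.26, adjusted p = 0.565). The 2 higher without overlap were Tekt2, at 1.25 and 1.47 FPKM against 1.76 and 1.83 FPKM (0.44 ± 0.25, adjusted p = 0.463), and Cfap69, at 2.13 and 2.09 FPKM against 2.81 and 2.30 FPKM (0.42 ± 0.17, adjusted p = 0.341). Below the filter, Tekt5 was at 0 and 0.04 FPKM against 0.57 and 0.30 FPKM, from 0 and 1 counts against 15 and 8. It was not tested, and it was named after its values were seen. None of the tested genes passed the adjusted threshold, which no gene of the table passed (smallest adjusted p 0.0961).

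Marker levels of several cell types differed between the day 7 groups. Myoid cell markers summed to 2515 and 2376 FPKM in the controls and 4115 and 4291 FPKM in the Amh-Rnf20-/- samples, spermatogonium markers to 225.6 and 218.7 FPKM against 155.9 and 154.7 FPKM, spermatocyte markers to 26.9 and 31.8 FPKM against 19.3 and 25.6 FPKM, and Sertoli cell markers to 2490 and 2313 FPKM against 1765 and 1902 FPKM. Acta2 and Tagln made up most of the myoid sum and Uchl1 most of the spermatogonium sum. All 7 myoid markers were higher without overlap, against 24.8% of all genes. Lower without overlap were 9 of 11 spermatogonium, 5 of 7 tested spermatocyte and 7 of 12 Sertoli cell markers, against 26.1%, while 1 spermatogonium and 1 Sertoli cell marker were higher. None of these passed the threshold. Leydig cell markers summed to 149.1 and 155.7 FPKM against 301.0 and 205.1 FPKM, with 3 of the 4 tested higher without overlap, against 24.8% of all genes, and none past the threshold. The part of these shifts in the small differences above was not tested. The intraflagellar transport genes, all 26 tested, had a median of 0.03 on the log2 scale, and the regulators of ciliary genes, 10 tested, of 0.00, with none past the threshold.

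**Figure D5:**
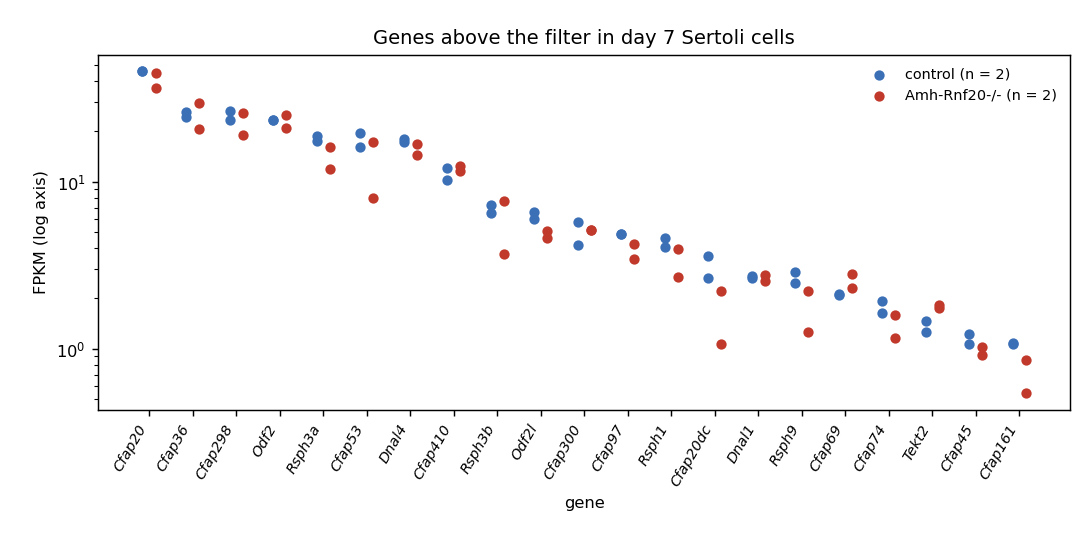
FPKM (log axis) in each day 7 Sertoli cell sample for the 21 genes above the filter, ordered by control level, controls in blue and Amh-Rnf20-/- samples in red. The points run from about the level of Cfap20 (36.2 to 46.2 FPKM) down to Cfap161 (0.54 to 1.08 FPKM). On FPKM the groups do not overlap for 11 genes that are lower and 2 that are higher in the Amh-Rnf20-/- samples.

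The adult changes were also set beside the day 7 levels. The 2 tables were made separately, so these are values side by side. The 21 genes tested at day 7 had an adult median of -3.66 on the log2 scale and kept 14.1% of their control FPKM. The 46 that were listed at day 7 without passing the filter, 43 of them tested in the adult, had a median of -5.04 and kept 5.39%. The 9 genes not listed at day 7, 8 of them tested in the adult, had a median of -6.26 and kept 2.43%. These classes entered the adult test through different groups, since all 8 of the last class and 31 of the 43 passed the filter through the controls only, against 1 of the 21. Among genes that passed in both groups the medians were -3.55 (20 genes) and -4.63 (12 genes), with none left in the last class. The classes overlap widely, at -6.07 to -1.3 for the first and -7.76 to 1.05 for the second. Across genes, day 7 control FPKM went weakly with the adult log2 fold change (Spearman rho 0.335 over 64 genes). In level, day 7 control FPKM went with adult FPKM in the samples labelled knockout (Spearman rho 0.657 over 67 genes), more than with adult FPKM in the controls (0.468 over 67 genes). These coefficients are descriptions over genes that share the same libraries, and genes are not independent replicates.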

How the data were processed

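The members and gene lists were chosen with earlier results of these data known. The authors used HISAT with the genome build GRCm38.p6, Bowtie2 with reference genes, and RSEM for the day 7 values; tool versions and strand handling are not given in the sources used here. The deposited tables hold, for each sample, estimated counts (not normalized), FPKM and TPM. The adult table was taken to be made likewise from its column names, and 20 further columns without values were not used. The labels give 2 samples a group at day 7 and 3 in the adult.

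Each table was fitted alone. Estimated counts, 10.7% to 13.2% of them not whole in the adult and 11.1% to 11.6% at day 7, were rounded and tested with edgeR 4.0.16 (quasi-likelihood, TMM, Benjamini-Hochberg over 15919 adult and 12880 day 7 genes with FPKM of at least 0.5 in 3 or 2 samples). Calls used the study's thresholds, 1 for the absolute log2 change and 0.001 for the adjusted p. The SE is the log2 fold change over the root of F. Overlap between groups was judged on TMM-scaled counts. Implied length is the count per library total divided by FPKM, in bases. The test was tried on simulated data. Alternatives were median-ratio and total-count scaling, DESeq2 1.42.0, limma 3.58.1 on log2(FPKM + 0.1) and log2(FPKM + 1), other filters, a threshold of 0.05, the replicate block and each sample left out.

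Genes were named by rule: the 10 largest adult falls among called genes, the 5 highest in the samples labelled knockout, the paralog sets, and at day 7 the 10 highest and the 5 smallest p-values each way; others were chosen after their values were seen. Promoters and coordinates come from RefSeq on GRCm38.p6, transcript lengths from GENCODE. A protein table was not used here. Intervals cover counting error only.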

Additional observations from a re-analysis of the deposited data

Results flagged for a closer look

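Among the genes tested at both ages, Tekt2 and Cfap69 were flagged because every sample moved up at day 7 and down in the adult. They were the 2 of 21 genes higher without overlap at day 7, a smaller share than the 24.8% of all genes tested there. At day 7 the log2 fold change was 0.44 for Tekt2 (edgeR adjusted p = 0.463) and 0.42 for Cfap69 (adjusted p = 0.341), with both Amh-Rnf20-/- samples above both controls. In adult testis it was -5.81 for Tekt2 and -5.70 for Cfap69. The difference between the ages was not tested, since the tables were normalized separately and hold different material, and Tekt2 at day 7 lay under 2 FPKM in every sample. Tekt5, below the filter at day 7 and so not tested there, was also higher in both Amh-Rnf20-/- samples (15 and 8 counts, against 0 and 1 in the controls) and had an adult log2 fold change of -7.55.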

How the results depend on the processing

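Of the 72 adult genes, 71 kept a log2 fold change below 0 under every alternative that fitted them. The count called lower, 40 in the main analysis, was 23 with total-count scaling, 71 with DESeq2, 71 at an adjusted p under 0.05 with no fold threshold, and 14 to 70 with 1 sample left out, the highest without knockout replicate 1. It was 40 with median-ratio scaling, 29 and 52 with limma at pseudocounts of 0.1 and 1, 41 with no filter and 37 with a mean FPKM of at least 1. The count called higher, 0 in the main analysis, was 1 (Dnah9) with total-count scaling, with limma at either pseudocount, at an adjusted p under 0.05 and without knockout replicate 1, so 0 to 1 with 1 sample left out. With the replicate number as a block 0 genes were called lower in the adult (lowest adjusted p 0.00149) and 0 either way at day 7. Same-numbered adult samples correlated at 0.018, 0.018 and 0.026, day 7 samples at 0.037, too little to call them pairs, though each adult sample correlated best with its own number, a hint from the data only. At day 7 no setting gave a call at the study's thresholds. With 1 day 7 sample left out, the lone sample is assumed to vary like the other group; without knockout replicate 1, 5 of 21 day 7 genes changed sign and the lowest adjusted p was 0.00138. The summed adult level left was 5.17% of control in FPKM and 6.21% in TPM. The causes were not tested. Depth limits Odf3b, Odf3l2 and Cfap97d2, which held at most 3 counts in each adult sample labelled knockout.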
